A study of Rattus norvegicus with 418 samples.

Results

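Liver mRNA of rats given 75 mg/kg bromobenzene was compared with that of vehicle rats 24 h after dosing. The arrays were chosen by their labels alone, namely the compound bromobenzene, the time of 24 h and the doses of 75 and 0 mg/kg, which gave 4 dosed and 4 vehicle arrays, 8 of the 418 arrays of the series. The series covered 8 liver toxicants, and 48 of its arrays were from bromobenzene, with vehicle and 3 doses (25, 75 and 250 mg/kg) at 6, 24 and 48 h and 4 rats in each group. Every rat of these groups was a male F344/N animal of 10 to 12 weeks that had been fasted for 12 to 18 h before it was dosed by gavage in corn oil, so that vehicle and dosed rats share the fast, the route and the oil. RNA of the left lateral liver lobe was taken from each rat on its own and hybridised to 1 Affymetrix rat array, and replicate numbers here only name the rats of a group in the order of deposit. Levels are given as log2(signal + 16), in which a difference of 1 is a 2-fold difference, and they compare the same gene between rats, not different genes with each other.

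Bromobenzene is an aromatic solvent that harms the liver through its own metabolism. Cytochrome P450 enzymes of hepatocytes around the central vein oxidise it to an epoxide. The epoxide is detoxified by conjugation with glutathione or by epoxide hydrolase, or it rearranges to bromophenols, from which quinones can form. When the epoxide and quinones exceed the supply of glutathione they bind to proteins, and the transcription factor NRF2, freed from its inhibitor KEAP1 by electrophiles, then switches on genes for glutathione synthesis, conjugation and quinone reduction through the antioxidant response element of their promoters.

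The label of each rat also carries a necrosis score of the liver. The 4 dosed rats scored 2, 0, 1 and 1, and all 4 vehicle rats and all 4 rats at 25 mg/kg scored 0, while all 4 rats at 250 mg/kg scored 4. The scores at 75 mg/kg and in vehicle overlapped in 1 dosed rat (exact two-sided permutation p = 0.143, and 0.286 adjusted over the 10 tests of array measures and scores). Arrays of both groups had like median levels (6.62 to 6.82 in vehicle and 6.58 to 6.85 at 75 mg/kg), and arrays within a group correlated at r = 0.957 to 0.967 and 0.952 to 0.970 over genes. Albumin, the defining hepatocyte product, was high in every array (15.56 to 16.48 in vehicle and 15.63 to 16.09 at 75 mg/kg).

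A pair of array measures did move with the groups. All 4 vehicle arrays were hybridised on the day before the 4 arrays of 75 mg/kg, so no vehicle array shares a day with a dosed array, although the arrays of 25 mg/kg share the day of the 75 mg/kg arrays. The log2 ratio of the 3′ to the 5′ probe set of beta-actin, which rises as RNA is degraded or copied incompletely, was 1.78, 1.18, 1.96 and 1.71 in vehicle and 1.11, 0.94, 0.99 and 1.11 at 75 mg/kg, with no overlap (exact two-sided permutation p = 0.0286, the smallest that 4 against 4 allows, adjusted p = 0.143). At 250 mg/kg the beta-actin ratio was 0.93 and 0.94 in arrays of the 75 mg/kg day and 1.68 and 1.55 in arrays of the vehicle day. At 25 mg/kg, all on the 75 mg/kg day, it was 1.27 to 1.52. The parts of day and dose in it were not tested. The same ratio for GAPDH overlapped between vehicle and 75 mg/kg (0.22 to 0.30 and 0.18 to 0.32, exact permutation p = 0.343, adjusted p = 0.429). The part of RNA quality in the results was not tested.

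Of 14217 genes tested, 1484 (10.4%) rose and 1136 (7.99%) fell at 75 mg/kg (limma, Benjamini-Hochberg adjusted p under 0.05, all 48 bromobenzene arrays in 1 fit). With arrays centred on their median the balance turned, to 1075 higher and 1385 lower. A change of at least 2-fold was reached by 486 of the risen genes (3.42% of those tested) and 281 of the fallen (1.98%). All 4 dosed rats lay above all 4 vehicle rats for 1822 genes (12.8%) and below them for 1432 (10.1%). With hybridisation day as a block, estimated through the groups whose arrays span 2 days, 1248 genes passed (702 up and 546 down), of which 582 and 495 were called in the same direction without it. Of the 2620 genes called without the block, 2603 kept their sign with it, and the median ratio of the changes was 0.833. Genes given below as changed at 24 h that lose the call with the block are given with that value.

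The largest rise was in Gpx2, a glutathione peroxidase that reduces lipid and hydrogen peroxides with glutathione. Gpx2 read 6.05, 4.67, 4.80 and 5.98 in the vehicle rats and 11.93, 11.29, 12.09 and 11.97 in the dosed rats, a log2 change of 6.44 ± 0.43 (SE, adjusted p = 1.89e-15). Every dosed rat stood more than 5 log2 units above every vehicle rat. Gsr, which regenerates reduced glutathione, read 7.09, 8.00, 7.29 and 7.51 in vehicle and 10.54, 10.68, 10.34 and 10.60 after dosing (change 3.07 ± 0.24, adjusted p = 1.86e-13). Nqo1, which reduces quinones by 2 electrons, read 10.41, 10.07, 9.85 and 10.34 in vehicle and 12.86, 13.12, 12.81 and 13.19 after dosing (change 2.83 ± 0.19, adjusted p = 1.37e-15). In both genes the dosed rats lay close together and well clear of vehicle.

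Both subunits of the enzyme that starts glutathione synthesis rose. Gclc, its catalytic subunit, changed by 1.90 ± 0.13 (vehicle 10.79 to 11.04, dosed 12.71 to 12.97), and Gclm, its modifier subunit, by 1.88 ± 0.16 (vehicle 11.04 to 11.56, dosed 12.85 to 13.45). Txnrd1, a thioredoxin reductase named here after its values were seen, changed by 1.13 ± 0.12. Other NRF2 targets stood lower. Hmox1, which degrades heme, read 9.62, 10.02, 9.83 and 9.50 in vehicle and 10.96, 9.95, 11.37 and 10.69 after dosing (change 1.00 ± 0.18, adjusted p = 3.79e-05), so that dosed rat 2, whose liver scored 0, lay within the vehicle range. Srxn1, a sulfiredoxin, read 11.18 in dosed rat 3 and 9.18 to 9.54 in the other dosed rats against 8.53 to 8.69 in vehicle (change 1.19 ± 0.43, adjusted p = 0.0464), and it lost the call with day as a block (adjusted p = 0.129) and when any of 6 of the 8 rats was left out (without dosed rat 3 the change was 0.74, adjusted p = 0.309). Slc7a11, the cystine importer, had a change of 0.74 ± 0.49 that did not pass (adjusted p = 0.35). Of 13 measured genes on a list of NRF2 targets, 10 rose and 0 fell (8 and 0 with day as a block, 6 and 0 with all arrays of the series in 1 fit), and their median change was 1.13 against 0.02 over all genes.

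The promoters were searched for the core of the antioxidant response element that NRF2 binds. The core, TGACNNNGC on either strand, was looked for in RefSeq promoters of the GRCr8 assembly, which run from 250 bases before to 50 after the start of each gene. It was present in 12.2% of 27457 windows and in 14.4% of the 11700 windows of genes tested here, against 14.5% for the genes that rose, 15.8% for those that fell and 14.9% for those that rose at least 2-fold. It was present in 3 of 11 windows of the NRF2 list (Gclm, Txnrd1 and Gpx2) and in 6 of 17 windows of glutathione transferases. Among these transferases were Gsta3 and Gstp1, which rose, and Gstm7 and Gstz1, which fell. The following 100-base stretches lie upstream of the start and are written 5′ to 3′ on the strand of the gene, with the core in capitals, to set 4 genes that rose beside Gstm7, a glutathione transferase that fell and whose promoter holds the same core.
Gpx2 chr6:101230034-101230133 (-): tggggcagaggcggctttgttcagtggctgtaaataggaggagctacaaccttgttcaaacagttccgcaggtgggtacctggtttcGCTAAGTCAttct
Gsta3 chr9:31154889-31154988 (+): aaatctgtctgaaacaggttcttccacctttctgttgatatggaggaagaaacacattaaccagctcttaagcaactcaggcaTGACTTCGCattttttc
Gstp1 chr1:210769717-210769816 (-): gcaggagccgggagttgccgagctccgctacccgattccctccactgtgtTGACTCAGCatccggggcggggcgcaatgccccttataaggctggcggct
Txnrd1 chr7:22755933-22756032 (-): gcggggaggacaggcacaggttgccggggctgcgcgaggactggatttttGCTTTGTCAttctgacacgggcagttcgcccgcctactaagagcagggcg
Gstm7 chr2:198260320-198260419 (-): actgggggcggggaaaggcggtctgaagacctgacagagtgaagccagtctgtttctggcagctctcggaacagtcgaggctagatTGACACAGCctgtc
A match is a description of these letters, not a bound site, and the AP-1 motif TGANTCA can overlap the core. TGANTCA itself was found in 45 of 410 windows of genes that rose at least 2-fold and in 5.54% of windows of tested genes.

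Glutathione transferases split into genes that rose steeply and genes that fell. Gsta3, an alpha-class transferase, read 6.50, 7.28, 7.48 and 7.93 in vehicle and 12.41, 12.71, 11.56 and 12.71 after dosing (change 5.05 ± 0.38, adjusted p = 4.18e-14). Gstp1, the pi-class transferase known in rat liver as a marker of preneoplastic foci, read 10.56, 9.36, 10.80 and 10.58 in vehicle and 13.88, 14.11, 13.76 and 14.16 after dosing (change 3.65 ± 0.33). Gstm3 changed by 2.92 ± 0.29. In the opposite direction, Gstm7 read 11.69, 12.16, 12.39 and 12.02 in vehicle and 10.17, 10.56, 9.63 and 10.04 after dosing (change -1.97 ± 0.18), and Gstz1, which isomerises maleylacetoacetate in tyrosine breakdown, changed by -1.25 ± 0.11. None of these 5 genes had groups that overlapped. Of 21 transferases measured, 6 rose and 6 fell, with a median change of -0.16. Members of a transferase family are near copies of each other, and their probe sets may take up each other's transcripts.

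**Figure D1:**
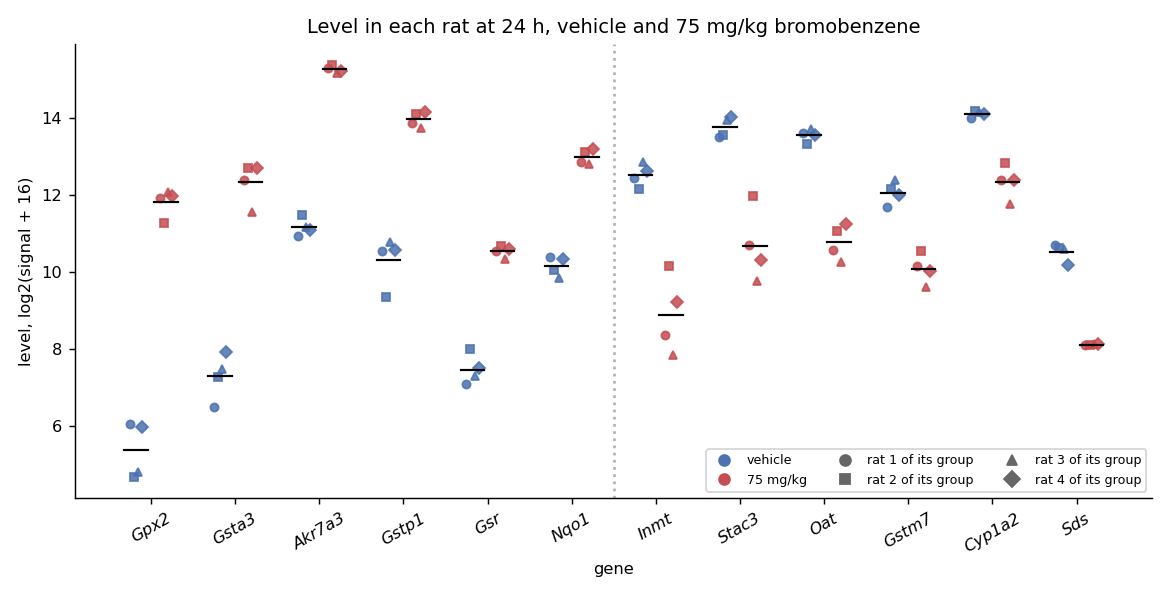
The plot shows log2(signal + 16) on the vertical axis for 12 genes on the horizontal axis, with 1 point for each of the 4 vehicle rats (blue) and 4 rats at 75 mg/kg (red) at 24 h and a bar at the group mean. The 6 genes left of the dotted line rose and the 6 on the right fell, and no dosed rat overlaps a vehicle rat in any of them.

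Several enzymes that reduce reactive carbonyls and quinones rose. Akr7a3, the rat aflatoxin aldehyde reductase, read 10.94, 11.48, 11.18 and 11.10 in vehicle and 15.30, 15.40, 15.19 and 15.24 after dosing (change 4.11 ± 0.16, adjusted p = 1.34e-23). Akr1b8, an aldo-keto reductase, read 7.34 to 7.73 in vehicle and 10.89, 9.58, 11.99 and 11.35 after dosing (change 3.47 ± 0.30), with dosed rat 2 lowest and rat 3 highest but both above vehicle. Cbr1, a carbonyl reductase, changed by 2.05 ± 0.21, and Ptgr1, which reduces unsaturated aldehydes, by 1.93 ± 0.16. Of 16 measured genes of this kind 6 rose and 2 fell, and with day as a block 6 rose and 0 fell.

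The enzymes that form and clear the epoxide did not move one way. Ephx1, the microsomal epoxide hydrolase, changed by 1.82 ± 0.13 (vehicle 13.16 to 13.79, dosed 15.26 to 15.47), and Ugdh, which makes the glucuronic acid donor, by 1.90 ± 0.13. Cyp1a2, a P450 of the pericentral zone, read 14.02, 14.20, 14.16 and 14.11 in vehicle and 12.41, 12.84, 11.78 and 12.40 after dosing (change -1.76 ± 0.17). Sult1a1, a phenol sulfotransferase, changed by -0.76 ± 0.14, and Cyp2e1, a P450 known to oxidise small solvents, had a change of -0.31 ± 0.16 that did not pass (adjusted p = 0.186). Among 22 measured genes of epoxide formation and removal, 3 rose and 6 fell, against 10.4% and 7.99% over all genes tested. Rat 3 lay lowest for all 6 that fell. Outside this list, Ugt2b7, a glucuronosyltransferase, read 6.19, 6.74, 6.09 and 6.28 in vehicle and 10.20, 11.19, 10.92 and 11.07 after dosing (change 4.53 ± 0.35). Abcc3, which exports glucuronides into blood and is also outside it, changed by 3.06 ± 0.49.

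Targets of the nuclear receptors CAR and PXR, which induce drug metabolism, were split as well, with 7 of 17 higher and 3 lower. Alas1, the rate-limiting enzyme of heme synthesis, changed by 1.28 ± 0.15 and Aldh1a1, which oxidises retinal, by 1.79 ± 0.20. Cyp2c12, which is on the growth hormone list and not on this one, is known in rat as a P450 of the female liver. It read 9.53, 8.91, 9.08 and 9.93 in these vehicle males and 12.48, 12.65, 13.15 and 13.10 after dosing (change 3.48 ± 0.33, adjusted p = 4.86e-11). All dosed males were above all vehicle males, and probe sets of this P450 subfamily may take up related transcripts.

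**Figure D2:**
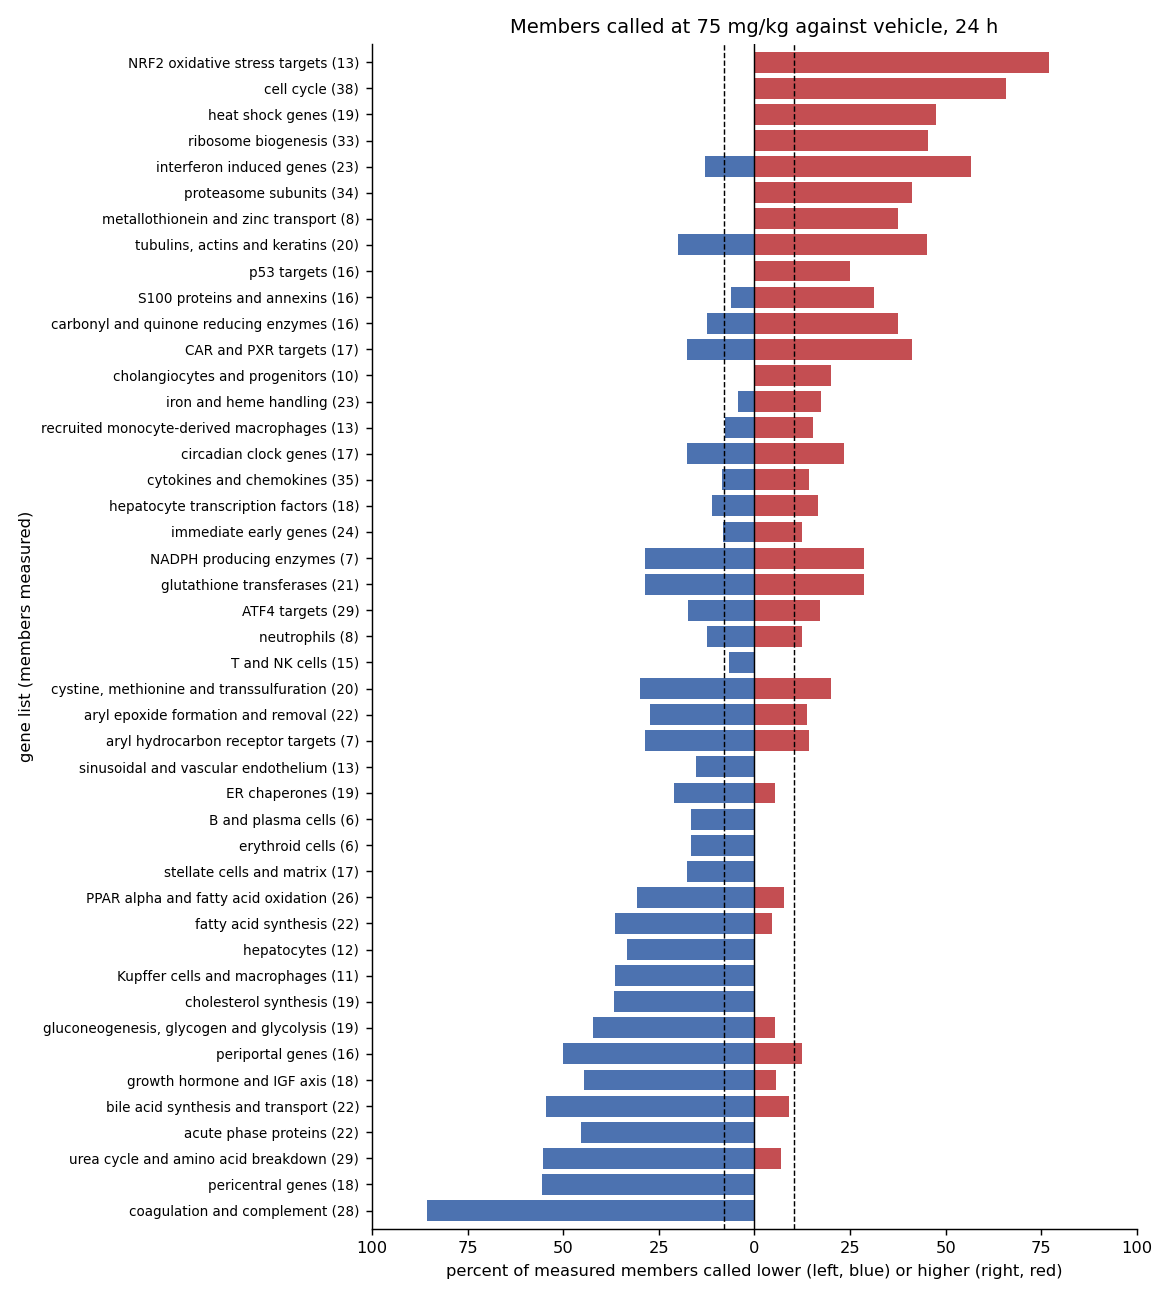
Each bar gives the percentage of the measured members of a gene list (number in parentheses) that were called higher (right, red) or lower (left, blue) at 75 mg/kg against vehicle at 24 h. Dashed lines mark the shares over all genes tested, 10.4% higher and 7.99% lower, and the NRF2 and cell cycle lists lie farthest to the right while coagulation and complement lies farthest to the left.

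Among chaperones the small heat shock protein Hspb1 rose most. Hspb1 read 9.37, 9.71, 9.53 and 9.35 in vehicle and 13.15, 11.48, 13.92 and 12.58 after dosing (change 3.29 ± 0.32, adjusted p = 8.16e-11), highest in rat 3 and lowest in rat 2. Hsp90ab1, a cytosolic chaperone of signalling proteins, changed by 0.93 ± 0.10, its cochaperone Ahsa1 by 0.77 ± 0.10 and Hspd1, the mitochondrial chaperonin, by 0.68 ± 0.09. Hspa1a, the stress-inducible HSP70, read 6.53, 7.01, 7.64 and 7.25 in vehicle and 7.49, 7.35, 9.51 and 6.84 after dosing (change 0.69 ± 0.41, adjusted p = 0.277), so that only rat 3 stood above the vehicle range, and without it the change was 0.12. Of 19 heat shock genes measured 9 rose and 0 fell (6 and 0 with day as a block). The heat shock element core GAANNTTC, a motif that reads the same on both strands, was in 10 of 18 windows of these genes and in 5.89% of windows of tested genes. The stretch of Hspb1 below is shown because it holds the core at 2 places, in capitals, upstream of the gene that rose most in the list.
Hspb1 chr12:26432361-26432460 (-): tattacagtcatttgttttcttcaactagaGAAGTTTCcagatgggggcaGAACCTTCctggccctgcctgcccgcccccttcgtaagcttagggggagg

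Some proteasome and keratin genes rose. Of 34 proteasome subunits 14 rose and 0 fell, with small changes such as 0.91 ± 0.10 for Psmc1 and 0.76 ± 0.11 for Psmc4 (0.45 and not called over the mean of its probe sets), both ATPases of the regulatory particle, and 9 rose with arrays centred on their median but 28 with quantile normalization. Krt8 read 12.10 to 12.35 in vehicle and 13.93 to 14.40 after dosing (change 2.00 ± 0.15), and Krt18, its partner in hepatocyte filaments, changed by 1.49 ± 0.16. Tpm3, a tropomyosin, changed by 1.58 ± 0.19. Of 20 tubulins, actins, keratins and related genes 9 rose and 4 fell, and with day as a block 4 rose and 1 fell. Among the calcium-binding annexins and S100 proteins 5 of 16 rose and 1 fell, led by Anxa7 (change 2.03 ± 0.23) and S100a10 (change 1.52 ± 0.25). S100a10 read 11.47, 10.37, 12.43 and 11.34 in the dosed rats against 9.83 to 9.94 in vehicle, with no overlap.

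Genes of DNA replication and mitosis rose together. Mcm6, a subunit of the replicative helicase, read 6.80, 5.42, 6.47 and 6.57 in vehicle and 8.54, 8.79, 9.02 and 9.19 after dosing (change 2.57 ± 0.43, adjusted p = 9.89e-06). Mcm7 of the same helicase changed by 1.37 ± 0.18, Rrm1, a ribonucleotide reductase subunit, by 1.22 ± 0.26 and Pcna, the polymerase clamp, by 0.75 ± 0.15. Trip13, of the spindle checkpoint, read 4.38 to 4.89 in vehicle and 7.03 to 7.41 after dosing (change 2.56 ± 0.47), and Cdca3, of mitotic entry, changed by 2.21 ± 0.41. The proliferation marker Mki67 read 5.26, 5.72, 6.03 and 4.69 in vehicle and 6.53, 6.55, 7.32 and 6.40 after dosing, and its change of 1.28 ± 0.50 missed the threshold (adjusted p = 0.0674) although the groups did not overlap. Of 38 cell cycle genes 25 rose and 0 fell, with a median change of 1.35, and 24 had all dosed rats above all vehicle rats. The count was 17 with day as a block and 17 without dosed rat 3, with 0 falls in each. In mean signal 4 of the 38 lie above the median gene, and all 4 rose. In whole liver more cells in cycle and more RNA per cycling cell cannot be told apart, just as fewer cells of a type and less RNA per cell cannot.

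Of 33 ribosome biogenesis genes 15 rose and 0 fell (9 and 0 with day as a block), among them Tsr1 (change 1.12 ± 0.18), Bop1 (1.16 ± 0.19) and Nop56 (1.15 ± 0.21), which all act in ribosomal RNA processing or subunit assembly. Bop1 lost the call with day as a block (adjusted p = 0.0749). The p53 list had 4 rises and 0 falls among 16 genes, including the death receptor Fas (change 1.54 ± 0.30, or 0.83 and not called over the mean of its probe sets) and the p53 ligase Mdm2 (0.55 ± 0.16), and rat 3 was highest for all 4. Without rat 3, 2 of the 16 passed and Mdm2 did not (adjusted p = 0.0891), and Mdm2 also lost the call with day as a block (adjusted p = 0.0544).

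Interferon-induced genes separated the dosed rats from each other. Isg15, a ubiquitin-like antiviral protein, read 9.64, 9.16, 9.13 and 9.46 in vehicle and 10.90, 9.53, 12.89 and 12.09 after dosing (change 2.00 ± 0.43, adjusted p = 0.000542), so that rat 2 lay inside the vehicle range and rat 3 more than 3 log2 units above the highest vehicle rat. Irf7, the factor that amplifies interferon signalling, read 9.24 to 9.76 in vehicle and 10.83, 10.32, 11.91 and 11.62 after dosing (change 1.60 ± 0.26). Usp18, which removes ISG15 from proteins, changed by 1.76 ± 0.29, the GTPase Gbp2 by 1.82 ± 0.32 and the antiviral GTPase Mx1 by 1.77 ± 0.35. Of 23 measured genes 13 rose and 3 fell, the latter being Ifit1, Ifi27 and B2m, and rat 3 was highest for 11 of the 13 and rat 2 lowest for 11. Ifit1 read 6.68 to 7.67 in vehicle and 6.28, 4.94, 5.14 and 4.67 after dosing (change -1.80 ± 0.58, adjusted p = 0.022), a call lost with day as a block (adjusted p = 0.136). Without dosed rat 3 the counts were 8 and 1, and 8 also rose without vehicle rat 3. The summed linear signal of the list overlapped, running from 95522 to 117205 in vehicle and from 83024 to 114328 at 75 mg/kg.

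Chemokine and macrophage genes followed the same order of rats in part. Ccl2, which attracts monocytes, read 4.79, 5.71, 6.65 and 7.43 in vehicle and 8.45, 7.62, 11.36 and 8.03 after dosing (change 2.72 ± 0.54, adjusted p = 0.000173). Rat 3 stood apart for it, and rat 2 lay just above the highest vehicle rat. Cxcl12, made by stroma and endothelium, changed by -0.95 ± 0.15 and Csf1, the macrophage growth factor, by -0.79 ± 0.16, although over the mean of its probe sets the change was -0.07 and not called. Of 35 cytokines and chemokines 5 rose and 3 fell, and without rat 3 only 1 rose and 3 fell. Immediate early genes gave 3 rises and 2 falls among 24, and 0 rises without rat 3. Over all genes tested 10.4% rose and 7.99% fell, and the shares of both lists lie near these.

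**Figure D3:**
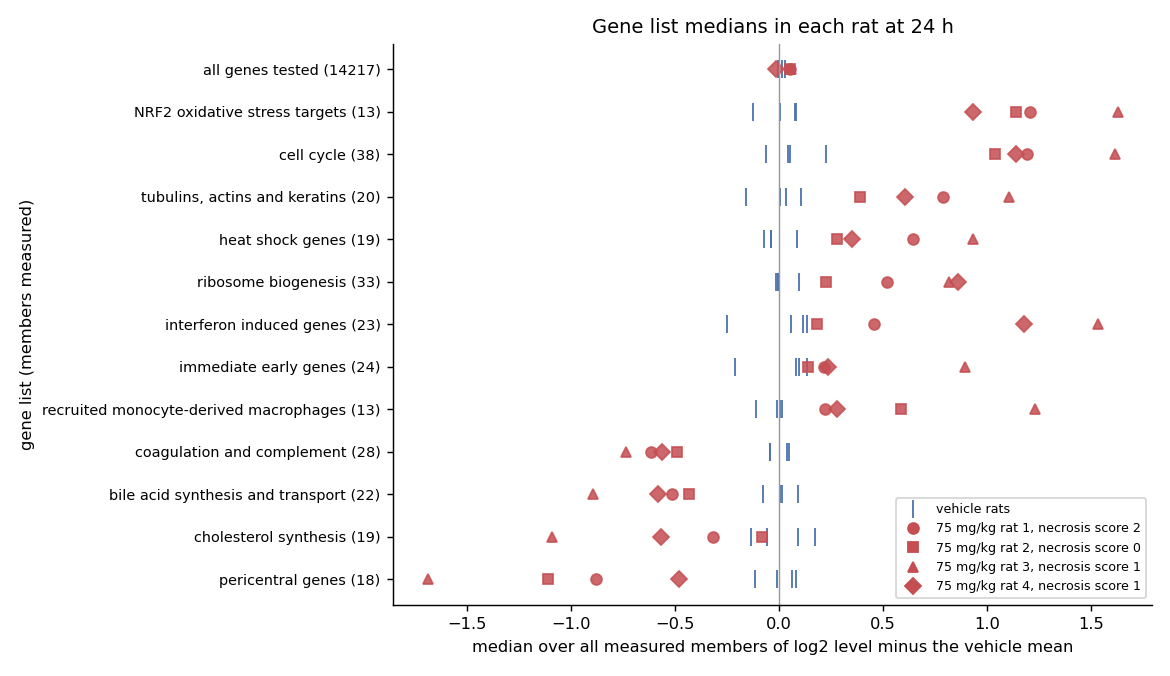
For each gene list the horizontal axis gives the median, over all measured members, of the log2 level minus the vehicle mean, with red symbols for the 4 rats at 75 mg/kg and blue ticks for the 4 vehicle rats at 24 h. Dosed rat 3 is farthest from vehicle in 11 of the 12 lists shown, which are a choice from the 45 lists. In several lists not shown another dosed rat is farthest. These include rat 1 for the growth hormone axis (-0.68), rat 2 for CAR and PXR targets (0.67) and rat 4 for clock genes (0.40). Over all 14217 genes the dosed medians lie between -0.01 and 0.06.

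Dosed rats differed from each other across all genes, not only in these lists. Rat 3, with a necrosis score of 1, was the dosed rat farthest from the vehicle mean for 662 of the 1484 genes that rose and 597 of the 1136 that fell. Rat 2, with a score of 0, was the nearest for 687 and 578. Rat 1, with the highest score of 2, was the farthest for 307 and 199, so the order of the rats by expression was not the order by score. For the 6 glutathione transferases that rose, rat 3 was instead the nearest to vehicle.

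Many genes of amino acid breakdown and the urea cycle fell. Oat, ornithine aminotransferase of pericentral hepatocytes, read 13.62, 13.34, 13.73 and 13.56 in vehicle and 10.58, 11.08, 10.28 and 11.25 after dosing (change -2.77 ± 0.19, adjusted p = 5.17e-15). Sds, serine dehydratase, which feeds serine into gluconeogenesis, read 10.20 to 10.72 in vehicle and 8.10 to 8.14 after dosing (change -2.42 ± 0.40). Kynu, of tryptophan breakdown, changed by -1.54 ± 0.17, Gnmt, which consumes S-adenosylmethionine, by -1.40 ± 0.18 and Otc, of the urea cycle, by -1.11 ± 0.12. Of 29 genes 16 fell and 2 rose (12 and 1 with day as a block), and rat 3 was lowest for 14 of the 16.

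Many genes of the pericentral zone, where bromobenzene is oxidised, and of the periportal zone fell. Of 18 pericentral genes 10 fell and 0 rose (8 and 0 with day as a block), and their summed linear signal ran from 143332 to 165611 in vehicle and from 63221 to 93055 at 75 mg/kg, without overlap. Avpr1a, the vasopressin receptor, read 12.05, 12.24, 12.09 and 11.87 in vehicle and 9.93, 10.30, 9.31 and 9.99 after dosing (change -2.18 ± 0.28). Lect2 changed by -1.51 ± 0.17 and Rgn, regucalcin, by -1.48 ± 0.19. Of 16 periportal genes 8 fell and 2 rose, with 3 and 0 under the day block, and 5 fell without dosed rat 3 or with quantile normalization. Inmt, a methyltransferase of indole and other amines, had the largest fall of all named genes, from 12.45, 12.16, 12.87 and 12.62 in vehicle to 8.38, 10.16, 7.84 and 9.24 after dosing (change -3.62 ± 0.38, adjusted p = 8.61e-10).

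Slco1b2 and Slc10a1, which take organic anions and bile acids up from blood, changed by -1.46 ± 0.19 and -1.05 ± 0.14, and Amacr, a racemase of bile acid side chains, by -1.25 ± 0.14. Of 22 bile acid genes 12 fell and 2 rose (7 fell with day as a block), the rises including the exporter Abcc3. Cyp7a1, which starts the conversion of cholesterol to bile acids, read 13.89, 13.36, 13.35 and 12.63 in vehicle and 12.38, 12.48, 11.49 and 11.48 after dosing (change -1.36 ± 0.38, adjusted p = 0.00718), a call that was lost with day as a block (change -0.51 ± 0.47). For cholesterol synthesis 7 of 19 genes fell and 0 rose, led by Ebp (change -1.67 ± 0.17) and Sc5d (-1.45 ± 0.19), both late sterol enzymes, and for fatty acid synthesis 8 of 22 fell and 1 rose (5 fell with day as a block or with all arrays in 1 fit), with -1.56 ± 0.27 for Acss2, which makes acetyl-CoA from acetate, and -1.11 ± 0.18 for Acaca, which makes malonyl-CoA (-0.45 and not called over the mean of its probe sets). Rat 3 was the lowest for all 7 of the sterol genes and all 8 of the fatty acid genes that fell. Phyh, which starts the breakdown of phytanic acid, changed by -1.72 ± 0.17.

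Most secreted proteins of coagulation and complement fell. Of 28 genes 24 fell and 0 rose, and 21 fell with day as a block. F10, coagulation factor X, read 13.95, 14.11, 14.16 and 14.01 in vehicle and 12.91, 13.16, 12.63 and 12.84 after dosing (change -1.17 ± 0.09, adjusted p = 1.55e-13). C8b of the membrane attack complex changed by -0.74 ± 0.10, the inhibitor Serping1 by -0.64 ± 0.09 and the anticoagulant Proc by -0.63 ± 0.09. Acute phase proteins, which the liver secretes in inflammation, gave 10 falls and 0 rises among 22 (6 falls with day as a block and 4 with quantile normalization), including Apcs (change -0.97 ± 0.11) and Crp (-0.65 ± 0.11). Albumin (Alb) had a change of -0.07 ± 0.20 that did not pass, and among 12 hepatocyte markers 4 fell, Apoa2 (change -0.63 ± 0.12) with them, and 1 fell under the day block, where Apoa2 did not (adjusted p = 0.0648).

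Several genes of the growth hormone axis fell. Ghr, the receptor, read 13.81 to 14.11 in vehicle and 12.12 to 12.96 after dosing (change -1.40 ± 0.14, or -0.33 and not called over the mean of its probe sets). Igf1, its main secreted product, changed by -0.95 ± 0.14 and Igfbp4, an IGF-binding protein, by -1.11 ± 0.15. Of 18 genes 8 fell and 1, Cyp2c12, rose. Stac3 on the same list read 13.52, 13.58, 13.96 and 14.04 in vehicle and 10.71, 11.98, 9.77 and 10.31 after dosing (change -3.08 ± 0.33). Outside the list, Egfr, the EGF receptor, changed by -1.85 ± 0.27 and Inhba, an activin subunit, by -2.25 ± 0.29. Fabp7, a fatty acid binding protein, changed by -1.83 ± 0.21.

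Targets of ATF4, the factor of the amino acid and unfolded protein stress responses, did not move one way, with 5 rises and 5 falls among 29. Slc3a2, the heavy chain of amino acid transporters, read 10.29 to 11.01 in vehicle and 12.03 to 12.84 after dosing (change 1.90 ± 0.17). Nupr1, a stress-induced chromatin protein, read 11.21, 11.13, 10.62 and 11.01 in vehicle and 8.18, 8.74, 8.57 and 8.47 after dosing (change -2.50 ± 0.25, adjusted p = 2.3e-10), and Atf5, a transcription factor of the same response, changed by -2.11 ± 0.18. Neither gene had groups that overlapped.

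Some clock genes also differed between the groups, though few with day as a block. Per2 and Dbp, which peak around dusk in rodent liver, changed by 1.81 ± 0.37 and 1.35 ± 0.46, and Npas2, which runs opposite to them, by -1.52 ± 0.50. Of 17 clock genes 4 rose and 3 fell, against 10.4% and 7.99% over all genes tested. With day as a block 1 rose and 1 fell, near the 702 and 546 of 14217 over all genes. There Dbp (adjusted p = 0.0744) and Npas2 (adjusted p = 0.185) lost the call. Dbp and Npas2 also lost it without dosed rat 3 (adjusted p = 0.113 and 0.0643) and without several other rats. The labels give no hour of dosing or killing, and its part in these values was not tested.

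Markers of other cell types gave few calls. Gpnmb and Lgals3, made by lipid-laden and recruited macrophages, were the 2 of 13 genes on that list that rose. Another 1 fell and 10 were not called, against 10.4% higher and 7.99% lower over all genes tested. The summed signal of the list overlapped, at 11219 to 14761 in vehicle and 10155 to 23139 at 75 mg/kg. Gpnmb read 8.93 to 9.65 in vehicle and 11.56, 10.44, 12.81 and 11.74 after dosing (change 2.35 ± 0.35), and Lgals3 changed by 1.16 ± 0.20. Kupffer cell genes gave 4 falls and 0 rises among 11, such as Mrc1 (change -0.69 ± 0.11) and Cd14 (-0.62 ± 0.15). At 25 mg/kg, on the hybridisation day of 75 mg/kg, 6 of the 11 fell against vehicle and 0 rose. Between 25 and 75 mg/kg 1 rose and 1 fell. Mrc1 changed by -0.64 at 25 mg/kg against vehicle and by -0.05 ± 0.11 between the doses, whereas Cd14 changed by 0.005 and -0.62 ± 0.15. Among 8 neutrophil genes 1 rose and 1 fell. The one that fell was S100a9, an abundant granulocyte protein that read 8.31 to 8.41 in vehicle and 5.69 to 7.81 after dosing (change -1.47 ± 0.43, lost with day as a block at adjusted p = 0.548 and without dosed rat 2 at 0.0959). Its partner S100a8 had a change of -0.54 ± 0.53 that did not pass. The summed neutrophil signal ran from 737 to 1048 in vehicle and from 734 to 1481 at 75 mg/kg.

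For lymphocytes, stellate cells, endothelium, bile ducts and red cells the called counts were small. T and NK cell genes gave 0 rises and 1 fall among 15, B and plasma cell genes 0 and 1 among 6, stellate cell and matrix genes 0 and 3 among 17 with Col3a1, a fibrillar collagen, at -0.84 ± 0.15, and endothelial genes 0 and 2 among 13. Of 10 cholangiocyte and progenitor genes 2 rose, including Epcam (change 1.24 ± 0.18, dosed 10.61 to 10.72 against 9.20 to 9.79 in vehicle). Of 6 erythroid genes Hbb, beta-globin, alone was called, with a change of -1.07 ± 0.21 that was lost with day as a block (adjusted p = 0.3). Col3a1 and Hbb already changed by -0.64 and -0.91 at 25 mg/kg against vehicle. Their differences between 25 and 75 mg/kg did not pass (-0.205 ± 0.15 and -0.16 ± 0.21). The summed erythroid signal was 22147 to 31579 in vehicle and 12320 to 14726 after dosing, without overlap, and the part of blood left in the tissue was not tested.

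The step from 25 to 75 mg/kg could be tested within a single hybridisation day. At 75 mg/kg 754 genes were higher (5.3%) and 603 lower (4.24%) than at 25 mg/kg, 1357 in all, and 830 without dosed rat 3 of the 75 mg/kg group. The beta-actin ratio was lower at 75 mg/kg here too (1.27 to 1.52 at 25 mg/kg, exact permutation p = 0.0286, adjusted p = 0.143). The lists gave 7 rises and 0 falls for NRF2 targets in this comparison, 8 and 0 for heat shock, 9 and 0 for the cell cycle, 18 and 0 for both the proteasome and ribosome biogenesis, 12 and 0 for interferon-induced genes, 0 and 19 for both coagulation and amino acid breakdown, and 0 and 7 for the pericentral zone.

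Dose responses took several shapes. Against vehicle 396 genes were higher (2.79%) and 388 lower (2.73%) at 25 mg/kg, again across hybridisation days, and 66 passed with day as a block. Akr7a3 stood at 11.18 ± 0.23 in vehicle, 15.02 ± 0.04 at 25 mg/kg and 15.28 ± 0.09 at 75 mg/kg (SD, n = 4), and its difference between the doses, 0.26 ± 0.16 (SE), did not pass. Ephx1, Gsr, Gsta3, Hspd1 and Aldh1a1 likewise had differences between 25 and 75 mg/kg that did not pass (0.20 ± 0.13, 0.68 ± 0.24, 0.94 ± 0.38, 0.00 ± 0.09 and 0.15 ± 0.20), while each changed against vehicle at 25 mg/kg (1.62, 2.38, 4.11, 0.67 and 1.64), also with day as a block (1.59, 1.51, 4.48, 0.64 and 1.74). Other genes moved mainly between 25 and 75 mg/kg. Akr1b8 was 7.69 ± 0.17 at 25 mg/kg and 10.95 ± 1.02 at 75 mg/kg (difference 3.26 ± 0.30), and Gpnmb, Isg15, Irf7, Txnrd1 and Avpr1a differed by 1.86 ± 0.35, 2.77 ± 0.43, 1.78 ± 0.26, 1.08 ± 0.12 and -1.96 ± 0.28 between these doses, with no call at 25 mg/kg against vehicle. Gpx2 stood at 5.38 ± 0.74 in vehicle, 8.99 ± 0.22 at 25 mg/kg, 11.82 ± 0.36 at 75 mg/kg and 12.48 ± 0.22 at 250 mg/kg, and the first and second steps passed while the last did not (0.66, adjusted p = 0.267).

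**Figure D4:**
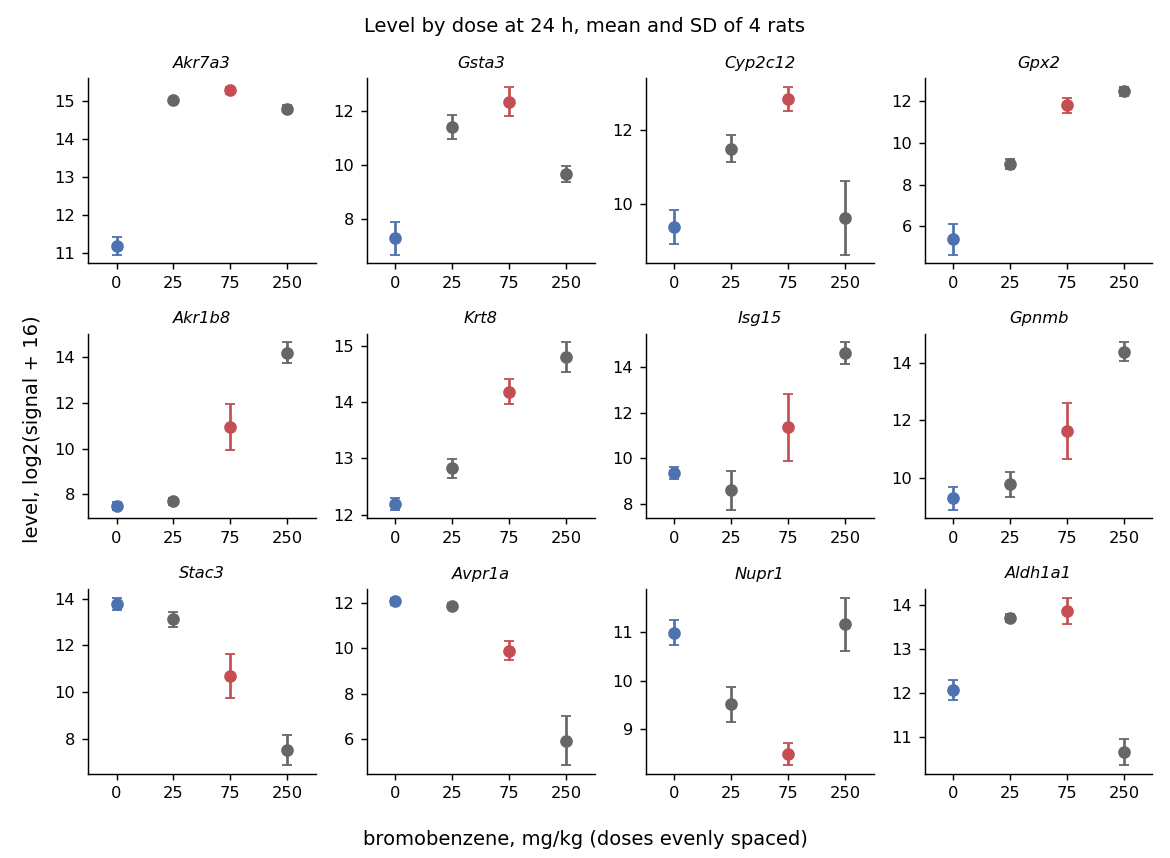
Each panel shows 1 gene, with the mean and SD of log2(signal + 16) of 4 rats at 24 h on the vertical axis and the dose in mg/kg on the horizontal axis (vehicle blue, 75 mg/kg red). Akr7a3 is near its highest level at 25 mg/kg, Akr1b8 and Gpnmb stay near vehicle there, and Gsta3, Cyp2c12 and Aldh1a1 are lower at 250 than at 75 mg/kg.

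The step above was larger in number of genes. At 250 mg/kg 2464 genes (17.3%) were higher and 2056 (14.5%) lower than at 75 mg/kg, and the 250 mg/kg arrays were hybridised on both days. From 75 to 250 mg/kg Aldh1a1 changed by -3.20 ± 0.20, Cyp2c12 by -3.22 ± 0.33 and Gsta3 by -2.67 ± 0.38, and 14 glutathione transferases were lower and 0 higher. Nupr1 was higher at 250 than at 75 mg/kg by 2.67 ± 0.25 and read 11.17 ± 0.54 there against 10.99 ± 0.26 in vehicle (SD). Immediate early genes (22 higher and 0 lower of 24) and neutrophil genes (8 and 0 of 8) stood higher at 250 mg/kg, and S100a9 differed by 7.74 ± 0.43 and Hspa1a by 6.33 ± 0.41. For the cell cycle 1 gene was higher and 5 were lower at 250 mg/kg.

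The genes called at 75 mg/kg were in part different at 6 and 48 h. Against the vehicle rats of the same time, 1150 genes rose (8.09%) and 1222 fell (8.6%) at 6 h, where both groups shared a hybridisation day. At 48 h, with vehicle and dosed arrays of different days, 124 rose (0.872%) and 67 fell (0.471%), 191 in all. With day as a block 423 were called (285 up and 138 down), and only 108 of them were among the 191. With all arrays of the series in 1 fit 639 were called, 153 of them among the 191. Of the genes that rose at 24 h, 426 had risen at 6 h (28.7% of the 24 h list and 37% of the 6 h list) and 84 had fallen. Of those that fell at 24 h, 367 had fallen at 6 h (32.3% and 30%) and 40 had risen. At 48 h 33 of the 24 h rises (2.22%, and 26.6% of the 48 h list) and 28 of the falls (2.46% and 41.8%) were called in the same direction.

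The effect at 24 h differed from the effect at 6 h for 975 genes in the positive direction (6.86%) and 759 in the negative (5.34%), and each of the differences named here passed with day as a block too. Srxn1 changed by 6.81 ± 0.43 at 6 h and by 1.19 at 24 h, a difference of -5.61 ± 0.61, and Hmox1 by 5.44 ± 0.18 and 1.00, a difference of -4.44 ± 0.25. Zfand2a, a heat shock gene, Atf3 and Myc, both early response factors, differed by -5.05 ± 0.54, -5.40 ± 0.69 and -3.97 ± 0.70. Gpx2 (2.60 at 6 h), Gsta3 (1.67) and Cyp2c12 (0.00) had larger effects at 24 h by 3.85 ± 0.61, 3.38 ± 0.53 and 3.48 ± 0.46. All 13 NRF2 targets had risen at 6 h, and 9 had a lower and 2 a higher effect at 24 h.

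Replication, interferon and clock genes came later or turned. Mcm6 had a change of -1.35 ± 0.43 at 6 h and 2.57 at 24 h, a difference of 3.92 ± 0.60. Cell cycle genes gave 3 rises and 3 falls at 6 h, and the effect was higher at 24 h for 9 of 38 and lower for 1. Interferon-induced genes gave 2 rises and 3 falls at 6 h, and 10 of 23 had a higher effect at 24 h. Per2 was lower at 6 h (-1.80 ± 0.37) and higher at 24 h, and Cyp7a1 fell by 5.48 ± 0.38 at 6 h, 4.13 ± 0.53 more than at 24 h.

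**Figure D5:**
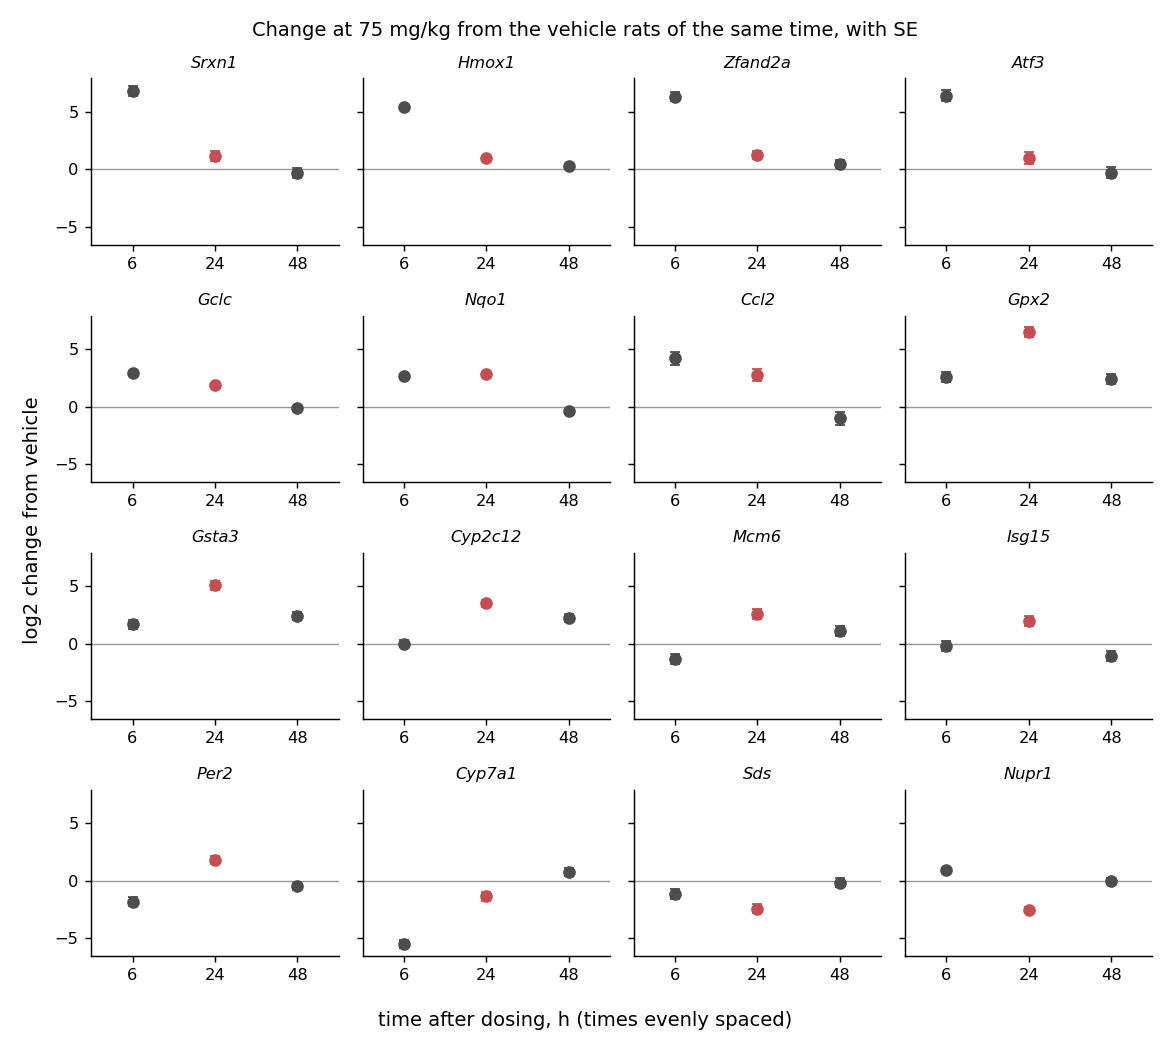
Each panel shows 1 gene, with the log2 change at 75 mg/kg from the 4 vehicle rats of the same time and its SE on the vertical axis and 6, 24 (red) and 48 h on the horizontal axis. Srxn1, Hmox1, Zfand2a and Atf3 are highest at 6 h, Gpx2, Gsta3, Cyp2c12 and Mcm6 at 24 h, and Per2 lies on opposite sides of 0 at 6 and 24 h.

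The effect at 48 h was higher than at 24 h for 677 genes (4.76%) and lower for 696 (4.9%). The export pump Abcc3 differed by -4.16 ± 0.70, Ugt2b7 by -4.03 ± 0.49, Ccl2 by -3.75 ± 0.77, Nqo1 by -3.25 ± 0.26, Akr1b8 by -3.21 ± 0.43 and Isg15 by -3.06 ± 0.61, and none of these 6 was called higher at 48 h. Gpx2 differed by -4.06 ± 0.61 and was still higher than vehicle at 48 h (change 2.38 ± 0.43), as were Gsta3 (2.39 ± 0.38), Gstp1 (2.75 ± 0.33), Cyp2c12 (2.21 ± 0.33) and Akr7a3 (1.34 ± 0.16). Among genes that had fallen, Nupr1, Acss2 and Sds moved up by 2.49 ± 0.36, 2.44 ± 0.38 and 2.25 ± 0.57 and were not called at 48 h, whereas Oat (-1.64 ± 0.19), Inmt (-2.43 ± 0.38) and Stac3 (-1.30 ± 0.33) were still lower. With day as a block Inmt (adjusted p = 0.0755) and Stac3 (adjusted p = 0.0895) lost the call at 48 h.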

How the data were processed

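Total RNA of the left lateral liver lobe of each rat was hybridised to 1 array. The values deposited by the authors are log2 signals made with MAS5 (version not given in the sources used here), and on the linear scale the 2% trimmed mean of every array is 500, so levels are relative to the whole array. They were converted back to linear signals and log2(signal + 16) was used throughout, which shrinks changes of dim genes. Arrays were not normalized again. Of 31099 probe sets, 57 were controls, 9780 carried no gene symbol, 436 carried more than 1, and 20826 carried a single symbol. These represent 14217 genes, each read from the probe set of highest mean signal (4525 genes had a choice).

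The 48 bromobenzene arrays entered 1 linear model with a coefficient for each of 12 groups (limma 3.58.1, eBayes with a mean-variance trend, R 4.3.3), and p-values were adjusted by Benjamini-Hochberg over all 14217 genes. A gene is said to rise or fall at an adjusted p under 0.05. Errors of changes are SE. The p-values and SE rest on the spread between rats with 1 array each, and the number of arrays limits the precision. For each gene this spread is pooled over the 12 groups, so it is not that of the 8 rats compared. At 24 h Isg15 had an SD of 1.46 at 75 mg/kg and 0.25 in vehicle, and Sds 0.02 and 0.23. The SE of a gene whose dosed rats differ widely can therefore be too small. With only the groups compared in the fit, 2727 genes were called, 2340 of them among the 2620. For 5 array measures and scores, 10 exact two-sided permutation tests of 4 against 4 rats were run (scipy 1.17.1). Alternatives were quantile normalization, centring on the median, pseudocounts of 1 and 64, a filter on low signals, the mean over the probe sets of each gene, other sets of arrays in the fit, eBayes without trend, hybridisation day as a fixed or random block, and leaving out each rat. On simulated data with 14217 genes, the fit of 75 mg/kg against vehicle at 24 h called 46% of 100 genes changed by 1 log2 unit and 87% of 100 changed by 2, with 7 false calls. The simulation drew independent normal errors for each gene, of the same spread in every group. It held no day effect and no other changed gene in that contrast. Its rates therefore do not cover differences between hybridisation days or rats that stand apart across many genes.

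The comparison, the 45 gene lists and the rule for naming genes were chosen with earlier results of these data known. Named genes come from the top 20 called genes in each direction by log2 change, taken where dosed and vehicle rats do not overlap, without locus, clone or predicted names, from up to 4 called members of each list with the smallest adjusted p, from list members that did not pass, given by value, and from the 10 largest differences each way between doses or times.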

Additional observations from a re-analysis of the deposited data

Results flagged for a closer look

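In 232 groups of 4 values checked (vehicle and 75 mg/kg rats at 24 h, for 112 genes and the array measures), 1 rat stood apart from the others in 6, where chance alone gives about 1 in 20. In vehicle, rat 2 was low for Gstp1 (9.36), Zfand2a (6.72) and Atf3 (4.83), and 1 array had the highest share of signals under 16 (17.7%). At 75 mg/kg, rat 3 was high for Mki67 (7.32) and rat 4 low for Psmc4 (12.81).

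The effect of 75 mg/kg differed between times by a direct test for 1734 genes between 6 and 24 h and for 1373 between 24 and 48 h. From 6 to 24 h the log2 effect differed by 3.85 for Gpx2, 3.38 for Gsta3, 3.48 for Cyp2c12, 3.92 for Mcm6, 3.61 for Per2 and 4.13 for Cyp7a1. The difference was -5.61 for Srxn1, -5.40 for Atf3, -5.05 for Zfand2a, -4.44 for Hmox1 and -3.97 for Myc. From 24 to 48 h it was -4.16 for Abcc3, -4.06 for Gpx2, -4.03 for Ugt2b7, -3.75 for Ccl2, -3.25 for Nqo1, -3.21 for Akr1b8 and -3.06 for Isg15, and 2.49 for Nupr1, 2.44 for Acss2 and 2.25 for Sds.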

How the results depend on the processing

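With hybridisation day as a fixed block, the counts of called genes were 1248 for 75 mg/kg against vehicle at 24 h (2620 without), 915 for the difference between 24 and 6 h, 423 for 75 mg/kg against vehicle at 48 h and 66 for 25 mg/kg against vehicle. With day as a random block they were 2119 and, for 25 mg/kg, 368. With all arrays of the series in 1 fit, 2145 genes differed between 48 and 24 h, 639 were called at 48 h and 1519 at 25 mg/kg, against 1373, 191 and 784 in the fit reported. With only the groups compared in the fit, 1395 were called at 25 mg/kg. With genes above the median signal alone, 291 were called at 48 h. Leaving out 1 rat gave 2084 to 2552 genes for 75 mg/kg against vehicle and 830 to 1454 against 25 mg/kg, the lowest without dosed rat 3 in both. With arrays centred on their median the split was 1075 higher and 1385 lower for 75 mg/kg against vehicle (median change -0.08 in place of 0.02), 393 and 882 against 25 mg/kg (-0.06 in place of 0.07), 1777 and 2597 for 250 against 75 mg/kg (-0.03 in place of 0.13), 499 and 1107 between 24 and 6 h (-0.10 in place of 0.09), 790 and 476 between 48 and 24 h, 1352 and 766 at 6 h, and 435 and 240 at 25 mg/kg against vehicle. On the arrays of the shared day alone, 3655 genes differed between 250 and 75 mg/kg. Of the genes in the text called at 24 h, 105 in all, 18 lost the call under at least 1 alternative (Acaca, Apoa2, Bop1, Csf1, Cyp7a1, Dbp, Fas, Ghr, Hbb, Hmox1, Ifit1, Mdm2, Myc, Npas2, Psmc4, S100a9, Srxn1 and Zfand2a) and none changed sign with a call, while Mki67 gained it with only the groups compared (adjusted p = 0.0327). No paired analysis was possible because the labels give no replicate numbers. The correlation of arrays of a day in the random block was 0.0562. The causes of these shifts were not tested.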

Other observations

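Gene lists not described above gave the following counts at 75 mg/kg against vehicle at 24 h. Over all genes tested 10.4% rose and 7.99% fell. Of 26 genes of PPAR alpha and fatty acid oxidation 2 rose and 8 fell, and of 19 genes of gluconeogenesis, glycogen and glycolysis 1 rose and 8 fell (median changes -0.28 and -0.41) in the fit reported. The falls numbered 5 in the first list over the mean of the probe sets, and 5 in the second when hybridisation day was a block. Cystine, methionine and transsulfuration genes gave 4 rises and 6 falls among 20, NADPH producing enzymes 2 and 2 among 7, and targets of the aryl hydrocarbon receptor 1 and 2 among 7. ER chaperones gave 1 rise and 4 falls among 19, and hepatocyte transcription factors 3 and 2 among 18. Genes of iron and heme handling gave 4 rises and 1 fall among 23, and metallothionein and zinc transport genes 3 and 0 among 8.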
